A study of Mus musculus with 6 samples.

Results

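The 10 genes described here form the core of the circadian clock: the activators Arntl, Clock and Npas2, the repressors Per1, Per2, Per3 and Cry1, the nuclear receptors Nr1d1 and Nr1d2, and the output gene Dbp. They were taken by name, as every probe set whose gene symbol on the array platform was one of these 10. That gave 24 of the 45037 probe sets that are not array controls, and 10 of 18193 genes. The study compared colon RNA of 3 control mice with that of 3 HDAC2 KO mice, 1 array each. The source labels name epithelium from colon and number 1 mouse per array, whereas the titles have the plural. In the HDAC2 KO animals a floxed Hdac2 allele was deleted by a Cre recombinase driven from the villin promoter of intestinal epithelium, so other cells of the colon keep the gene. The genotype label of the other group says control only, and the sources used here do not say whether those mice carried the floxed alleles or the Cre. All animals were untreated, ate a normal diet and came from a mixed CD-1/129/C57BL/6 background. Their age, sex and hour of collection are likewise not given. The titles name HDAC2 alone for the mutant group, whereas its description names HDAC1/2, and the title is followed here.

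The clock is a feedback loop of transcription. BMAL1, the product of Arntl, pairs with CLOCK or its paralog NPAS2 and binds E-boxes, through which it drives the Per, Cry, Nr1d and Dbp genes. PER and CRY proteins then repress that pair, while the REV-ERB proteins made from Nr1d1 and Nr1d2 repress Arntl, Clock, Npas2, Cry1 and Nfil3 through ROR elements, which ROR proteins activate. DBP and its relatives TEF and HLF activate genes with D-boxes, among them Per genes, and NFIL3 represses the same sites. In the gut this loop runs in the epithelium and in other layers of the wall, and feeding times set its phase.

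The control sequences of this loop could be seen in several of the promoters whose genes are described below. Windows are given in the direction of transcription from RefSeq's GRCm38.p6, with matches to a motif in capitals. The motifs searched on both strands were CACGTG (the E-box), CACGTT (a variant called the E-prime box), TTATGTAA or TTACGTAA (the D-box) and TAGGTCA or TGGGTCA (the ROR element). No 2 matches in these windows overlapped. Those of Per1 (chr11:69098758-69098813, plus strand) and Cry1 (chr10:85185084-85185158, minus strand) hold an E-box, Cry1 together with an E-prime box, and that of Nr1d1 (chr11:98775378-98775430, minus strand) holds an E-prime box.
Per1: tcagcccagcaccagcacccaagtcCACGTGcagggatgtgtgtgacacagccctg
Cry1: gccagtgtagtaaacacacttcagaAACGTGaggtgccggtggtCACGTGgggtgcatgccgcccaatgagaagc
Nr1d1: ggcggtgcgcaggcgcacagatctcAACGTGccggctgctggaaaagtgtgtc

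Per3 (chr4:151044791-151044895, minus strand) is shown because 2 D-boxes, the sites of DBP, TEF and HLF, stand upstream of its start site. For Arntl (chr7:113207531-113207557, plus strand) and Nfil3 (chr13:52981040-52981076, minus strand), genes repressed by the REV-ERB proteins, a ROR element is shown. It begins 31 bases into the transcript at the downstream of the 2 Arntl start sites listed.
Per3: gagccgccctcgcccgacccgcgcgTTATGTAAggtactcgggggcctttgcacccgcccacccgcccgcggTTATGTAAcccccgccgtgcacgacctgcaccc
Arntl: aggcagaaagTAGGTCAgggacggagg
Nfil3: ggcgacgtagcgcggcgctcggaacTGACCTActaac

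Ciart (chr3:95882242-95882369, minus strand), a repressor outside the 10 genes, carries 3 E-boxes, the most among the promoters of the listed loop genes. The last 120 bases before the start site of Dbp (chr7:45705127-45705246, plus strand) are shown because Dbp changed most, and they hold none of these letters. The well described E-boxes of Dbp lie mostly inside the gene.
Ciart: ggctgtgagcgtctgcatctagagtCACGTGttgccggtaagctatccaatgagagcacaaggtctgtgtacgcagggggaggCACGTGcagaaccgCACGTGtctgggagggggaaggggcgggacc
Dbp: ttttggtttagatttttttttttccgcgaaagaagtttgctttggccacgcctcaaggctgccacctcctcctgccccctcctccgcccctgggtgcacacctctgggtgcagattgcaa

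Promoters, each 250 bases before to 50 after a start site, were listed for 9 of the 10 core genes, 13 in all. None was listed for Per2, the core gene that fell most, so no window of it is shown. Of these 13, 2 hold an E-box, 2 an E-prime box, 1 a D-box and 1 a ROR element. Over all 32851 promoters of the table the shares were 7.15%, 4.68%, 1.06% and 6.45%. Apart from Dbp, which a rule on the largest change selected, the windows were chosen after the matches were known. A match to these letters is a description of the sequence and not evidence of binding.

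Signals are log2 values from RMA (a normalization for Affymetrix arrays), so a difference of 1 is a doubling, and each difference is HDAC2 KO minus control with its standard error (SE). A gene was represented by its probe set of highest mean signal and was tested when that mean reached 6.66, the 40th percentile of all genes. Adjusted p-values come from limma adjusted by Benjamini-Hochberg over the 10916 genes tested, with n = 3 arrays per group, and genes with an adjusted p below 0.05 count as called. All 10 core genes were tested. Of these, 5 were called higher in HDAC2 KO, 3 were called lower and 2 were not called. Among all genes tested 17.9% were called, 9.68% higher and 8.20% lower. For the 8 called core genes the groups did not overlap, as was so for 37.7% of all genes tested. The median difference of the 10 genes was 0.12, with 5 above 0 and 5 below, against 0.0032 over all genes tested.

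**Figure D1:**
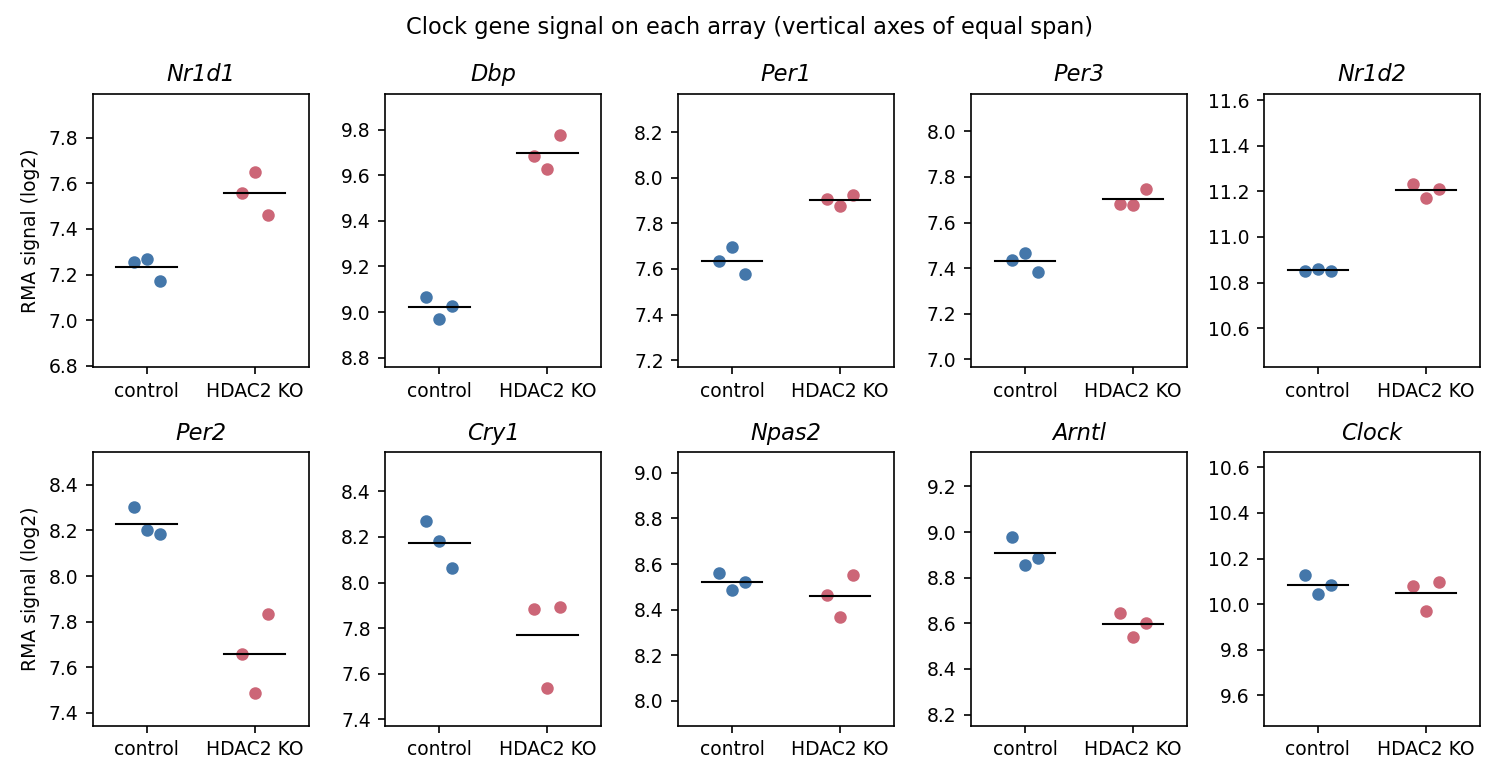
RMA signal (log2) of the 10 core clock genes on each array, blue for control and red for HDAC2 KO, with a bar at each group mean (n = 3). In Nr1d1, Dbp, Per1, Per3 and Nr1d2 all HDAC2 KO points lie above all control points, in Per2, Cry1 and Arntl they lie below them, and in Npas2 and Clock the groups overlap.

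Dbp, the transcription factor gene that most directly reports the activity of the BMAL1 pair, rose most. Its signal was 9.07, 8.97 and 9.03 in control mice and 9.68, 9.63 and 9.77 in HDAC2 KO mice. This was 1.60-fold higher, with a difference of 0.68 (SE 0.047, limma adjusted p = 5.41e-05). Only 1.09% of the genes tested had a larger absolute difference, and the median fold of all called genes was 1.17. This probe set belongs to a design class that may also match transcripts of other genes, and the second Dbp probe set, which does not, gave 7.55, 7.45 and 7.37 against 8.07, 7.97 and 8.07. The 2 probe sets thus separated the groups in the same direction, by 0.68 and 0.58.

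Both REV-ERB genes, whose products silence Arntl, were higher. Nr1d1 read 7.26, 7.27 and 7.17 in control and 7.56, 7.65 and 7.46 in HDAC2 KO, a 1.25-fold rise (difference 0.32, SE 0.053, limma adjusted p = 0.00483). Nr1d2 was 10.85, 10.86 and 10.85 in control and 11.23, 11.17 and 11.21 in HDAC2 KO. That is 1.28-fold higher (0.35, SE 0.032, limma adjusted p = 0.000256), with a spread within control of only 0.0045 (SD, n = 3). Its second probe set, dim at 4.61 in control mice, differed by the same 0.35 without passing in the fit over all probe sets (limma adjusted p = 0.0683).

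The period genes, which encode repressors of the BMAL1 pair, split. Per1 rose 1.20-fold, from 7.64, 7.70 and 7.58 to 7.91, 7.88 and 7.92 (difference 0.26, SE 0.039, limma adjusted p = 0.00284). Per3 rose by nearly the same amount, 1.21-fold, from 7.44, 7.47 and 7.38 to 7.68, 7.68 and 7.75 (0.27, SE 0.038, limma adjusted p = 0.00205). Per2 went the other way and was the core gene that fell most. Its signal was 8.30, 8.20 and 8.18 in control and 7.66, 7.49 and 7.83 in HDAC2 KO, 1.48-fold lower (-0.57, SE 0.080, limma adjusted p = 0.00222). The HDAC2 KO arrays were more spread for Per2 (SD 0.17, n = 3) than the control arrays (SD 0.064), yet the highest of them lay below the lowest control.

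Cry1, the cryptochrome gene that REV-ERB proteins repress and that peaks last among the repressors, also fell. It read 8.27, 8.18 and 8.06 in control and 7.89, 7.54 and 7.89 in HDAC2 KO, 1.32-fold lower (-0.40, SE 0.098, limma adjusted p = 0.0264). The groups were separate, but HDAC2 KO replicate 2 stood well below the other two mutants. This was the least stable of the 8 calls. It was lost without control replicate 1 (adjusted p = 0.0958), without control replicate 2 (0.0797), without the signal filter (0.0695) and in the fit over all probe sets (0.103).

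Of the activators, Arntl alone was called. It fell 1.24-fold, from 8.98, 8.86 and 8.89 to 8.65, 8.54 and 8.60 (-0.31, SE 0.045, limma adjusted p = 0.00256). Its second probe set, with mean signals of 6.17 in control and 6.13 in HDAC2 KO, overlapped between the groups (-0.040, limma adjusted p = 0.814 over all probe sets). Averaging both gave a difference of -0.18, still called (adjusted p = 0.0246). Npas2 was 8.56, 8.48 and 8.52 in control and 8.46, 8.37 and 8.55 in HDAC2 KO, with overlapping groups (-0.062, SE 0.050, adjusted p = 0.454). Clock, whose RNA is known to cycle little in many tissues, read 10.13, 10.04 and 10.08 against 10.08, 9.97 and 10.10 (-0.034, SE 0.045, adjusted p = 0.654). A second Npas2 probe set of low signal, at 6.18, 6.23 and 6.16 against 6.13, 6.06 and 6.02, did not overlap between the groups, but its limma adjusted p over all probe sets was 0.298.

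**Figure D2:**
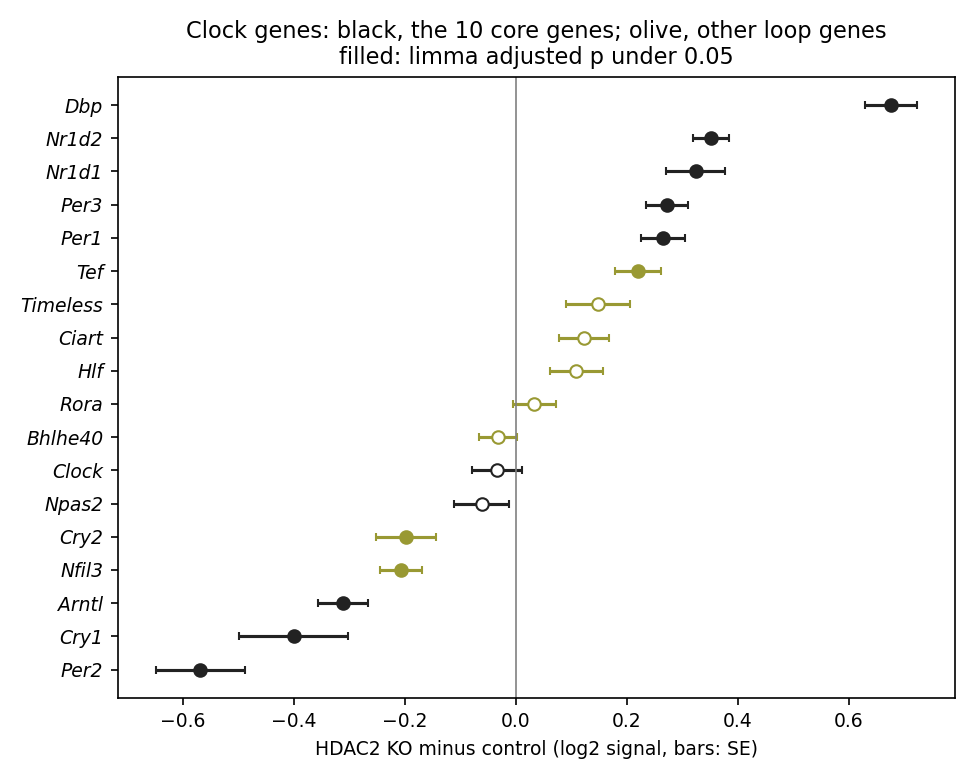
Difference between HDAC2 KO and control (log2 signal, horizontal axis, bars give the SE) for the 10 core genes in black and 8 further loop genes in olive, filled where the limma adjusted p was under 0.05. Dbp lies at 0.68 at one end and Per2 at -0.57 at the other, with Clock and Npas2 near 0.

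The other probe sets of these genes were mostly dim. Of the 24, 14 lay at or above a mean of 6.66 and 10 below it, and 7 of the genes had more than 1. In the limma fit over all 45037 probe sets, of which 3.80% were called, 9 of the 24 passed, 7 higher and 2 lower. The 15 others include all 4 of Clock and both of Npas2. For Per2 the probe sets disagreed. The 2 dimmer ones differed by 0.052 and 0.0093, and averaging all 3 gave a difference of -0.17, still called (adjusted p = 0.0199). Among 6 Per3 probe sets, the brightest and 1 of low signal were called higher, at 0.27 and 0.33, while the other four lay between -0.10 and 0.083. Averaged over all 6, Per3 differed by 0.11 and was not called (adjusted p = 0.0680). Which exons or transcript ends these probe sets read was not analysed here.

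**Figure D3:**
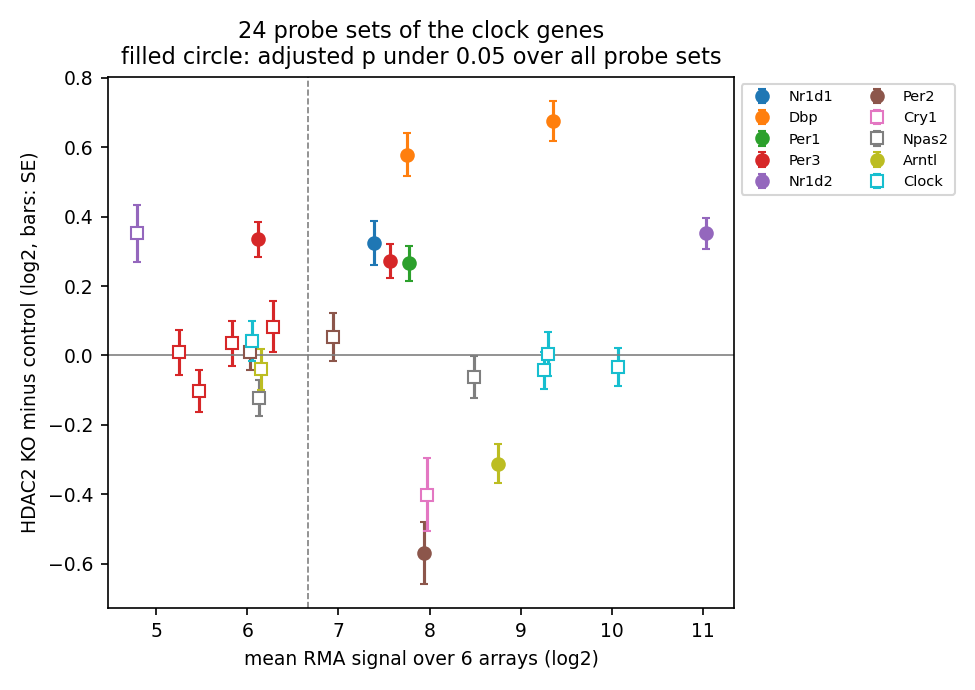
Difference between HDAC2 KO and control (log2, bars give the SE) against mean RMA signal (log2) for the 24 probe sets of the 10 genes, 1 colour per gene, filled circles where the limma adjusted p over all probe sets was under 0.05. The dashed line is the filter level of 6.66, and 8 of the 9 filled circles lie to its right.

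To set the arms of the loop side by side, each gene was centred on its mean over the 6 arrays and averaged within its arm. The arm driven through E-boxes and D-boxes (Dbp, Per1, Per2, Per3, Nr1d1 and Nr1d2) stood at -0.086, -0.10 and -0.14 in control mice and at 0.11, 0.072 and 0.15 in HDAC2 KO mice. The activator arm (Arntl, Clock and Npas2) stood at 0.12, 0.025 and 0.060 in control and at -0.040, -0.14 and -0.020 in HDAC2 KO. The arms drawn in this way moved in opposite directions, by 0.22 and -0.14 on the log2 scale. Driven minus activator was -0.18 ± 0.046 (SD, n = 3) in control mice and 0.18 ± 0.034 in mutants, a difference of 0.36. These scores are descriptions without a test. They hide that Per2 moved against the rest of its arm, and that Arntl accounts for most of the activator shift. Cry1, also driven through E-boxes, was left out of both arms because its peak lies between them. It differed by -0.40, the direction of Per2 and of the activators. The repressor genes taken alone did not move opposite to the activators as a set. Among them Per1 and Per3 rose, by 0.26 and 0.27, and Per2 and Cry1 fell by more (-0.57 and -0.40).

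**Figure D4:**
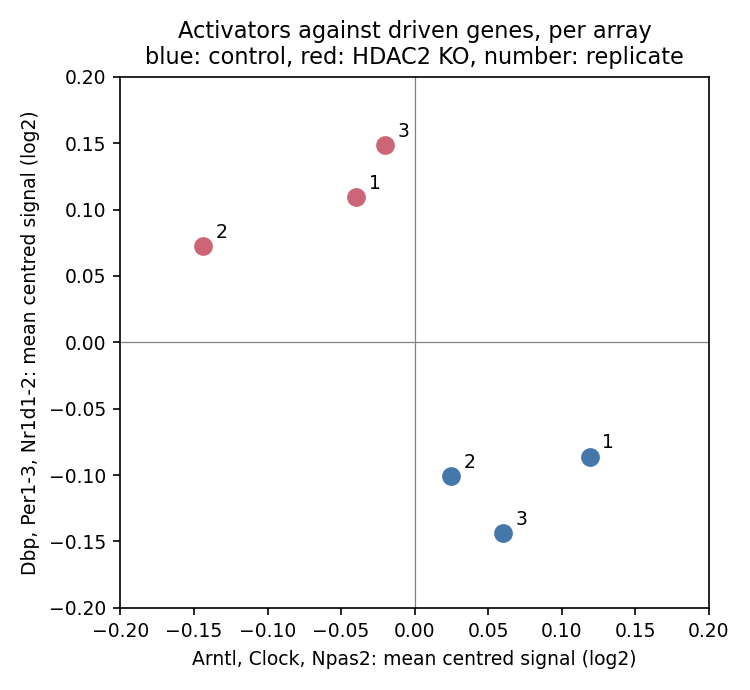
Each point is 1 array, blue for control and red for HDAC2 KO, numbered by replicate, placed by the mean centred signal (log2) of the 3 activators and of the 6 driven genes. The control arrays have positive activator and negative driven means, and the HDAC2 KO arrays the reverse.

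In mouse organs outside the brain the RNAs of these genes peak in a known sequence through the day. Nr1d1 peaks first, then Dbp, with Per1, Per3 and Nr1d2 close to it, followed by Per2, then Cry1, and then Npas2, Clock and Arntl. Placed in that sequence, which was written down with the values known, the called genes form 2 unbroken stretches. The 5 with the earlier peaks, Nr1d1, Dbp, Per1, Per3 and Nr1d2, were all higher, and the 3 with later peaks, Per2, Cry1 and Arntl, were all lower. The repressor genes Per2 and Cry1 thus fell with the activator gene Arntl, while the repressor genes Per1 and Per3 rose. The labels give no hour of collection, and each group holds 3 mice with no time series. A shift of the clock and a difference in collection or feeding time between the groups cannot be told apart. The parts of cell makeup, sex and a direct effect of HDAC2 loss in this pattern were not tested.

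Genes that extend the loop included 12 listed for this purpose, of which 8 were tested. Tef, the relative of Dbp, rose 1.17-fold, from 9.36, 9.42 and 9.43 to 9.68, 9.63 and 9.56 (0.22, SE 0.042, limma adjusted p = 0.00910). Averaging the probe sets of Tef ended that call (difference 0.096, adjusted p = 0.251), as did the fit over all probe sets (0.0746). Nfil3, whose product opposes DBP and TEF at D-boxes, fell 1.15-fold, from 7.23, 7.20 and 7.23 to 7.07, 7.01 and 6.96 (-0.21, SE 0.038, limma adjusted p = 0.00781, and 0.0735 over all probe sets). Thus the D-box activators Dbp and Tef were higher and the D-box repressor Nfil3 lower.

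Cry2, the second cryptochrome gene, was 7.53, 7.60 and 7.48 in control and 7.44, 7.32 and 7.26 in HDAC2 KO (-0.20, SE 0.054, limma adjusted p = 0.0411). Its call was lost in 8 of 15 alternatives, with adjusted p up to 0.172, among them leaving out any of the 3 control arrays, HDAC2 KO replicate 2 or HDAC2 KO replicate 3. Ciart, the repressor gene with 3 E-boxes shown above, differed by 0.12 (SE 0.045) and Hlf by 0.11 (SE 0.047), neither called (limma adjusted p = 0.103 and 0.159). Ciart was called without HDAC2 KO replicate 2 (0.0204), and Hlf likewise (0.0292). Timeless, which in mammals acts mainly at replication forks, differed by 0.15 (SE 0.057, adjusted p = 0.117) and passed with its probe sets averaged (0.0480) or with a replicate block (0.0310). Rora, a REV-ERB competitor, differed by 0.033 (adjusted p = 0.606) and Bhlhe40, an E-box repressor gene, by -0.032 (adjusted p = 0.575). Arntl2 (6.66 in control, 6.60 in HDAC2 KO), Rorb (5.78 and 5.81) and Bhlhe41 (5.66 and 5.75) lay below the filter.

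Genes acting on clock proteins were not called. Of 9 listed kinases and ubiquitin ligase subunits 7 were tested, and limma called 0, with 0 at an unadjusted p under 0.05. Their differences ran from -0.063 to 0.079, the smallest p belonging to the casein kinase 2 genes Csnk2a2 (0.079, adjusted p = 0.264) and Csnk2a1 (-0.051, adjusted p = 0.359) and the casein kinase 1 gene Csnk1e (-0.063, adjusted p = 0.520). Among 11 tested chromatin partners of the loop, 1 was higher and 3 were lower, with a median of -0.051. Over all genes tested the shares were 9.68% and 8.20%. The targeted gene Hdac2 read 10.40, 10.37 and 10.43 in control and 10.21, 10.12 and 10.24 in HDAC2 KO, 13.7% less signal (limma adjusted p = 0.00893). This Hdac2 probe set is of the design class, described above for Dbp, that may also match transcripts of other genes. Where this probe set lies relative to the floxed region was not analysed here, so its value does not check the deletion itself. Hdac1 was 1.11-fold higher (adjusted p = 0.0321), Crebbp, a coactivator acetyltransferase gene, 1.12-fold lower (0.0459, lost at 0.0806 in the fit with a replicate block), and Sfpq, which encodes a partner of the PER complex, 1.16-fold lower (0.0299). Hdac3, the deacetylase that works with the REV-ERB proteins, differed by 0.098 (SE 0.038, adjusted p = 0.119).

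Output genes known to cycle in many organs or to be controlled by the loop were called in 2 of 7 cases. The share over all genes tested was 17.9%. Cdkn1a, a cell cycle inhibitor gene that REV-ERB represses in liver, rose 1.25-fold, from 11.58, 11.61 and 11.54 to 11.90, 11.92 and 11.89 (limma adjusted p = 0.000521). It thus moved in the same direction as the REV-ERB genes Nr1d1 and Nr1d2. Pdxk, the pyridoxal kinase gene that DBP and its relatives activate in mouse brain, fell 1.12-fold (adjusted p = 0.0189), opposite to Dbp and Tef. The 5 others lay between -0.0017 and 0.088, with a median over all 7 of 0.073. Over these 4 lists of further clock genes, 9 of 33 tested were called, 3 higher and 6 lower, beside the same 17.9%. The count fell to 4 without control replicate 1 and without control replicate 2, where 10.4% and 11.7% of all genes were called. It fell to 5 without control replicate 3 or HDAC2 KO replicate 1, where 12.7% and 11.7% were.

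Hormones and body temperature also act on the clock, and lists of their response genes were read beside it. These lists were chosen with earlier results of these data known, so their counts are descriptions. Of 7 glucocorticoid-induced genes 4 were higher and 0 lower, with a median of 0.19. Over all genes tested 9.68% were called higher and 8.20% lower. Fkbp5, a chaperone gene of the glucocorticoid receptor, rose 1.21-fold from 11.17, 11.17 and 11.12 to 11.47, 11.45 and 11.39 (limma adjusted p = 0.00129), Zbtb16 1.22-fold (0.00863), Dusp1, a phosphatase gene, 1.24-fold (0.000728) and Klf9 1.10-fold (0.0251). Per1 is itself induced by glucocorticoids.

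Cirbp, the cold-inducible RNA-binding protein gene, rose 1.30-fold from 7.43, 7.47 and 7.43 to 7.83, 7.72 and 7.90 (limma adjusted p = 0.00134). The heat-inducible chaperone genes went the other way. Hspa1a fell 3.37-fold, from 10.64, 10.60 and 10.72 to 8.94, 8.75 and 9.01 (limma adjusted p = 1.89e-06), Hspa1b 2.90-fold (1.02e-05), Hsph1 1.62-fold (1.10e-05) and Dnajb1 1.18-fold (0.00314). Hsp90aa1 differed by -0.17 (adjusted p = 0.104, and 0.0246 with the replicate block). Of 5 immediate early genes 2 rose and 0 fell, Egr1 by 1.26-fold (adjusted p = 0.000994) and Jun by 1.16-fold (0.0110). The share called higher over all genes tested was 9.68%. The part of hormones, temperature or handling in the clock values was not tested.

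**Figure D5:**
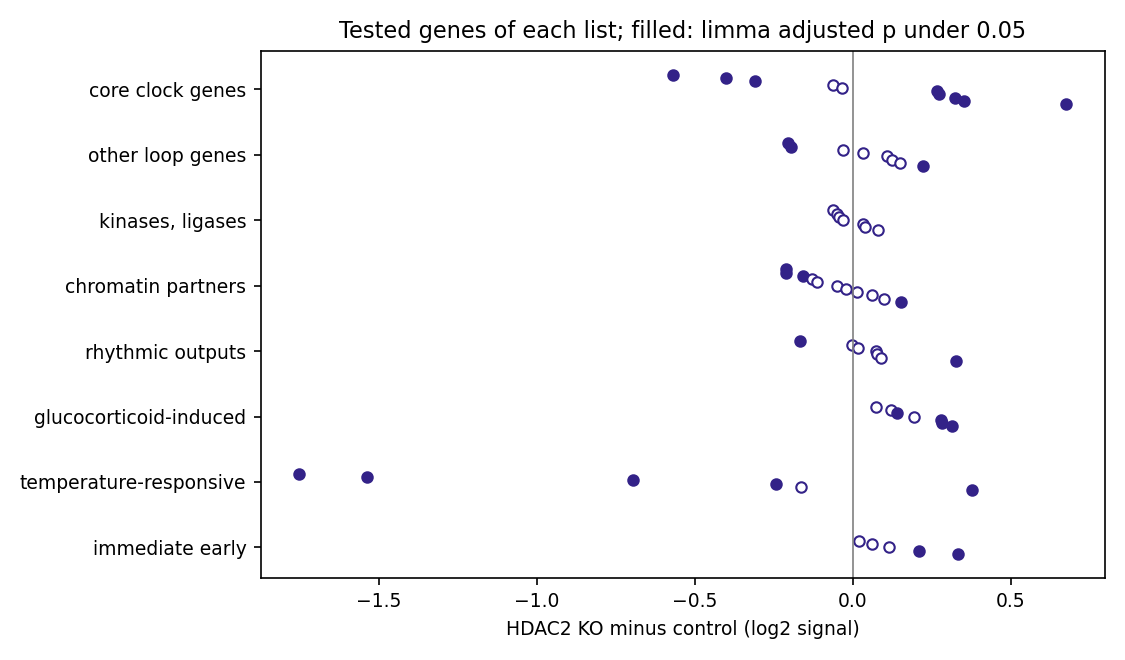
Difference between HDAC2 KO and control (log2 signal) of every tested gene in the core clock list and 7 lists read beside it, 1 point per gene, filled where the limma adjusted p was under 0.05. The kinases and ligases cluster near 0 with 0 filled points. Core clock genes, other loop genes, chromatin partners and rhythmic outputs lie on both sides. Of the temperature-responsive genes 1 of 6 lies above 0, and all glucocorticoid-induced and immediate early points do.

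Likeness was measured across the 6 arrays of both groups, so genes that differ between the groups score high, and it is given as a description. Outside the clock lists, the genes most correlated with Dbp were Cyp3a13, a cytochrome P450 gene (Pearson r = 0.9979), Apoa4 (0.9976), Actg2 (0.9976), Ppm1j (0.9976) and Shoc2 (0.9973). For Arntl they were Trib2 (0.9995), Timmdc1 (0.9986), Cd34 (0.9976), Nxpe4 (0.9949) and Adamts15 (0.9940). With 6 arrays in 2 groups, 132 tested genes exceeded r = 0.98 with Dbp and 53 with Arntl.

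Markers of several cell types differed between the groups. Over all genes tested 9.68% were called higher and 8.20% lower. Epithelial markers were present and 3 of 8 tested were higher and 0 lower, the mean log2 signal of the list running from 13.03 to 13.05 in control and from 13.18 to 13.21 in HDAC2 KO. Smooth muscle markers, also present although the source label names epithelium, were higher in 3 of 7 cases (mean signal 12.29 to 12.32 against 12.42 to 12.46). Adipocyte markers were lower in 4 of 4 tested (mean signal of the list 9.37 to 9.44 against 7.33 to 7.44), B cell markers in 5 of 5 (9.70 to 9.78 against 9.03 to 9.08), T cell markers in 2 of 3 (the call of Cd3e was lost with the replicate block, limma adjusted p = 0.0978), macrophage markers in 3 of 3 and endothelial markers in 4 of 5. The 3 macrophage markers tested were Ptprc (-0.80), which other leukocytes also express, Csf1r (-0.29) and Lyz2 (-0.32). The other macrophage markers lay below the filter and overlapped between the groups. Mean signals were 6.49 in control and 6.47 in HDAC2 KO for Adgre1, 6.59 and 6.48 for Cd68, and 4.18 and 4.195 for Itgam. Of the fibroblast markers 1 of 6 was lower, and 0 of 3 enteric neuron markers were called, with 0 at an unadjusted p under 0.05. All of these cell types carry clocks, and in bulk RNA fewer cells of a type and less RNA per cell cannot be told apart. The part of cell makeup in the clock values was not tested.

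The groups did not overlap in any of the 4 sex-linked genes read, nor in 37.7% of all genes tested. Xist ran from 11.99 to 12.04 in control and from 11.52 to 11.56 in HDAC2 KO, whereas the Y-linked genes were higher in HDAC2 KO. Eif2s3y ran from 7.48 to 7.56 and from 7.89 to 8.32, Kdm5d from 6.90 to 7.02 and from 7.36 to 7.84, and Uty from 5.56 to 6.02 and from 6.09 to 6.32. Xist and the Y-linked Eif2s3y and Kdm5d thus all read above the filter level of 6.66 on each of the 6 arrays. The source labels number 1 mouse per array, and whether any array holds RNA of both sexes was not tested. The sex of the mice is not given, and its part in the clock values was not tested. Arrays of the same group correlated with r of 0.9964 to 0.9989 across the genes tested, arrays of different groups with 0.9907 to 0.9923. The array most distant from its group mean was HDAC2 KO replicate 2 (root mean square deviation 0.080). Without it, all 8 core genes were still called.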

How the data were processed

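Colon RNA of 3 control and 3 HDAC2 KO mice was measured on 1-colour Affymetrix arrays. The authors deposited log2 values made with RMA, per the submitters' processing notes (version not given). The log2 scale was read from the range of 2.39 to 14.6. RMA quantile-normalizes the arrays, which hides a change in total RNA, and compresses differences at low signal. The source labels number 1 mouse per array (the titles have the plural), and the number of arrays limits the precision.

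Of 45101 probe sets, 64 were controls, 34945 had 1 gene symbol in the platform annotation of 2016, 932 had several and 9160 had none listed. The brightest probe set stood for each of 18193 genes, and genes at or above the 40th percentile were tested in R 4.3.3 with limma 3.58.1 (functions lmFit and eBayes, no term but group). A second fit took all probe sets. An exact permutation test of 3 against 3 arrays cannot give a p under 0.1. In simulated data for this comparison with 10916 genes, limma recovered 40% of genes changed by 0.2, 72% at 0.3, 84% at 0.5 and 100% at 1 on the log2 scale, with 6.92% false calls.

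Alternatives were other filters, probe set averaging, no probe sets ending in _s_at or _x_at, further quantile normalization, median centring, array weights, a fit with an intensity trend and robust variances, a replicate block, and leaving out each array. Deviations from the group means correlated between same-numbered arrays with r of 0.201 to 0.336. Between arrays of different numbers r ran from -0.367 to 0.183. Deviations sum to 0 within each group, so these values cannot settle whether the numbers mark pairs. No label states a pairing, and only the replicate block has a term for the number.

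The 10 genes and all lists were chosen with earlier results of these data known. Named are the 10 core genes, the 12 further loop genes, the called members of the other lists (otherwise the 3 of smallest p), and the 5 genes most correlated with Dbp and with Arntl. Adipocyte, lymphocyte and other cell markers are given as counts. Promoters came from RefSeq's GRCm38.p6, matched by symbol. Of the listed genes, 12 were not analysed here. Hybridisation batches were not tested, as scan dates were not used.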

Additional observations from a re-analysis of the deposited data

How the results depend on the processing

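The number of core genes called stayed at 8 without _s_at and _x_at probe sets, after both other normalizations, with a trend and robust variances, with array weights and with the replicate number as a block (8 core genes, 9 further clock genes and 1943 of all genes). Averaging probe sets, no signal filter and the fit over all probe sets each left 7. The filter at the 60th percentile left 3, because it tested only 5 of the 10. With array weights 3506 genes and 14 further clock genes were called, and without the signal filter 4 further clock genes; the cause was not tested. Leaving out 1 array at a time gave 7 to 8 core genes, 4 to 9 further clock genes and 1130 to 2107 genes in all. Clock, not called in any fit, went from -0.034 to 0.0059 without HDAC2 KO replicate 2, the lowest value with an array left out being -0.058. No other core or loop gene changed sign. Among the listed genes the block ended the calls of Crebbp and Cd3e and added those of Timeless, Sgk1 and Hsp90aa1. The difference between the arms was 0.34 with averaged probe sets against 0.36. Signals of 10 probe sets below 6.66 limit what these could show.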
